A study of Mus musculus with 4 samples.

Results

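The genes described here are 10 genes of major histocompatibility complex (MHC) class I presentation, taken by symbol from the 55487 genes of the deposited count table. They are the heavy chains H2-K1, H2-D1, H2-Q7, H2-T23 and H2-M3, the light chain B2m, the peptide-loading genes Tap1, Tap2 and Tapbp, and the transcriptional regulator Nlrc5. Each symbol had 1 row, and all 10 passed the filter on low counts. The RNA was from Langerhans cells, which are epidermal dendritic cells, out of ear skin of wild-type mice. In the control group the ears received Vaseline (2 libraries) and in the test group imiquimod (2 libraries), a Toll-like receptor 7 agonist used on skin to give a psoriasis-like inflammation. Strain, age, sex, dose and days of treatment are not given in the sources used here. Whether each library is an animal of its own is not stated, so a p-value here weighs a difference against library spread that could be technical. The samples also carry short codes of unstated meaning, with the same letters for both Vaseline libraries and other letters for each imiquimod library; whatever these mark cannot be told apart from the treatment.

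An MHC class I molecule is a heavy chain bound to beta-2-microglobulin and a short peptide. Peptides cut from cytosolic proteins by the proteasome are pumped into the endoplasmic reticulum by the TAP1-TAP2 transporter, and tapasin (Tapbp) holds the empty heavy chain beside the transporter until a peptide fits. Nearly all nucleated cells, keratinocytes among them, carry class I. In dendritic cells it also shows peptides of engulfed proteins to CD8 T cells. Interferons and NF-kappaB raise class I transcription, and NLRC5 acts on class I promoters through a conserved group of elements that includes an X2 box and a Y box (an inverted CCAAT).

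These elements could be read in the promoters of the genes. RefSeq promoters of GRCm38.p6, each 300 bases long from 250 before to 50 after the start of the gene, were found for 8 of the 10 genes, not for Tap2 and Nlrc5. Motifs were searched on both strands for 5 elements. The interferon response core was GAANNGAAA, or the same with 1 more A before the gap. The NF-kappaB core was GGGNNTTCC and the X2-like core TGACG. The CCAAT box was searched by those letters and the TATA core as TATAAA. The letters were written with the promoters in view, so the shares given here describe these promoters and test nothing. No match overlaps another in the stretches printed here. An X2-like core followed, after 10 to 30 bases, by ATTGG on the same strand was present in 5 of the 8 promoters and in 0.747% of 32544 RefSeq promoters. The stretches from the X2-like core to the inverted CCAAT box, both in capitals, are shown because their spacing was almost fixed, at 20 bases in 4 genes and 19 in H2-Q7:
H2-K1, chr17:34000359-34000388, minus strand: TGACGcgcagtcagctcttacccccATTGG
H2-D1, chr17:35262993-35263022, plus strand: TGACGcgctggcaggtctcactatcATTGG
H2-Q7, chr17:35439091-35439119, plus strand: TGACGtgtaacagttctcacccctATTGG
H2-M3, chr17:37270188-37270217, plus strand: TGACGcttctccaattcccattctaATTGG
B2m, chr2:122147609-122147638, plus strand: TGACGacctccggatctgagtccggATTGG

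In H2-K1, H2-D1 and H2-Q7 an NF-kappaB core and an interferon response core also stood upstream of that pair. This combination, in whatever order, was found in 3 of the 8 promoters and in 5 of all RefSeq promoters (0.0154%), which belong to H2-K1 (with 2 listed starts), H2-D1, H2-Q7 and Strbp. H2-K1, H2-D1 and H2-Q7 are close relatives, identical pairwise at 88.2% to 91.5% of aligned coding bases, so they are not 3 independent cases. The 190 bases before the start of H2-K1 and H2-D1 show how alike the order is. Those of B2m show an interferon response core and no match to the letters GGGNNTTCC. Forms of the NF-kappaB element with other spacing were not searched, so B2m may hold such a form. Matches to the interferon response, NF-kappaB, X2-like and CCAAT motifs are in capitals, on either strand:
H2-K1, chr17:34000348-34000537, minus strand: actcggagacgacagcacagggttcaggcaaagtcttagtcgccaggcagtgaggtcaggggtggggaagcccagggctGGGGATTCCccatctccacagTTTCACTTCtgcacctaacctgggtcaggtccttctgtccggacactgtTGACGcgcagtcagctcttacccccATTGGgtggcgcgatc
H2-D1, chr17:35262904-35263093, plus strand: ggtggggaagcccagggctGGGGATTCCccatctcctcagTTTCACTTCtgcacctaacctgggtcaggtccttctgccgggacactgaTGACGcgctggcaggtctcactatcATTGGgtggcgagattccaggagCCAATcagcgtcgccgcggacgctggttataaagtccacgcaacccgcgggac
B2m, chr2:122147497-122147686, plus strand: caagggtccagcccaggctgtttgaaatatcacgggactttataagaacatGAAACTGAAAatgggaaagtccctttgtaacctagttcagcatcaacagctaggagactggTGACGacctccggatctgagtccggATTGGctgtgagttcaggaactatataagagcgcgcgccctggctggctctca

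The interferon response core was matched in 6 of the 8 promoters, against 10.4% of all promoters, and the CCAAT box in all 8, against 37.4%. The NF-kappaB core was matched in 3, against 5.85%, the X2-like core in 6, against 20.9%, and the TATA core in 3, against 13.6%. The TATA core lay 26 to 21 bases before the start in H2-D1, but after the listed start in H2-K1. In B2m it was on the opposite strand, 152 to 147 bases before the start. H2-T23 had an interferon response core and a CCAAT box, and Tapbp matched the CCAAT box alone. Tap1 and Psmb9, an immunoproteasome subunit, start 225 bases apart on opposite strands and so share their promoter region. A match describes letters in this window and is not a measured binding site.

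**Figure D1:**
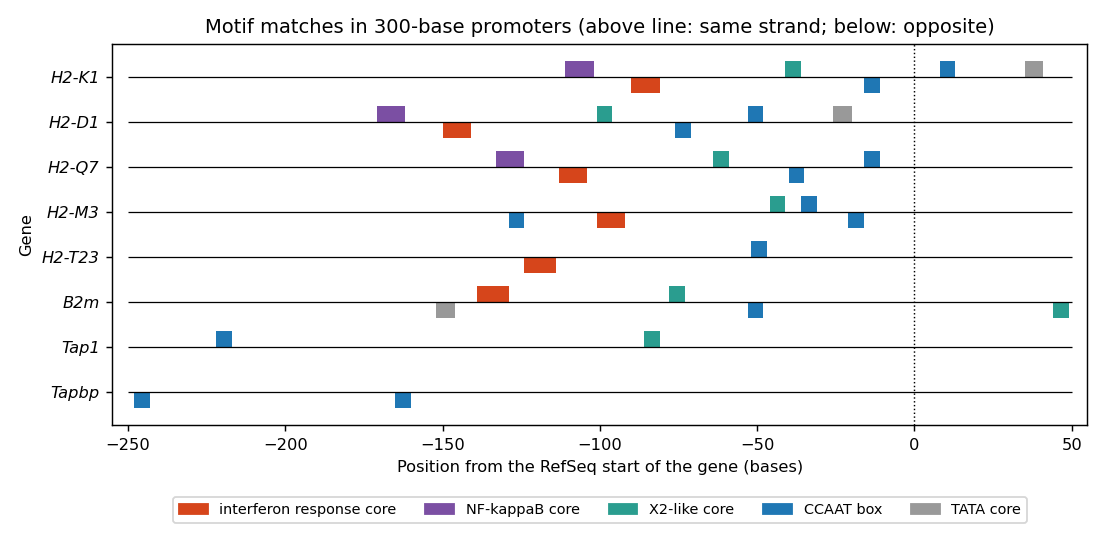
Motif matches in the 300-base RefSeq promoters of 8 class I genes, by distance in bases from the start of the gene (0, dotted line); boxes above a line lie on the gene's strand and boxes below on the opposite strand. The interferon response core, X2-like core and inverted CCAAT box follow each other in H2-K1, H2-D1, H2-Q7, H2-M3 and B2m, and an NF-kappaB core precedes them in the first 3 of these.

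Depth was 41998172 and 76028955 counts in Vaseline 1 and 2, above the 14902782 and 20690182 of imiquimod 1 and 2. The genes above were counted 89 (H2-M3 in imiquimod 1) to 54611 times (H2-K1 in Vaseline 2). No library was a repeat of another: over genes, chi-square divided by its degrees of freedom was 73.4 for the Vaseline pair and 69.4 for the imiquimod pair. Levels are CPM, counts scaled to the size of the library. They are given on effective totals and also on plain library totals, because the choice changed what is read from these genes. The trimmed-mean (TMM) factors of the effective totals were 0.955, 0.598, 1.05 and 1.66 in the order Vaseline 1, Vaseline 2, imiquimod 1, imiquimod 2. Background reads, by the median of olfactory and vomeronasal receptor genes, stood at 0.377, 0.0913, 0.526 and 1.26 CPM per kilobase in that order. On this scale of library totals they were lowest in Vaseline 2 and highest in imiquimod 2, as were the TMM factors. Their part in the fold changes was not tested. Of 12 Langerhans cell markers none was at 0 in any library. The same held for keratinocyte, monocyte and macrophage, fibroblast, endothelium, B cell and melanocyte markers. Being above 0 therefore does not check the labelled cell type. Cd207, the lectin langerin, had 2151 and 4113 CPM of library totals with Vaseline and 1262 and 952 with imiquimod. Krt14, a basal keratinocyte keratin, was above Cd207 in each library, at 5305, 4484, 6829 and 2858 CPM of library totals. Summed marker levels with Vaseline and with imiquimod, in CPM of library totals, were 3922 and 6535 against 2094 and 2038 for Langerhans cells, 345 and 470.0 against 1551 and 787 for activated keratinocytes, and 15.5 and 30.04 against 77.5 and 446 for neutrophils. Of the 10 neutrophil markers edgeR called 2 higher on TMM factors and 0 on library totals, and DESeq2 called 0. At an unadjusted p under 0.05, 7, 8 and 4 were higher, against 3405, 5988 and 462 of all 39439 genes in those fits. A fit of genes at 5 or more times the background level, by the mean over the 4 libraries, held 3 of the 10. It held 0 of the 5 endothelium and 0 of the 5 B cell markers. Of these, 3 and 3 were higher by edgeR on library totals at an unadjusted p under 0.05, and 0 and 1 on TMM factors. Of the 12 Langerhans cell and 11 tested activated keratinocyte markers 0 passed by edgeR, with 5 lower and 3 higher at an unadjusted p under 0.05. DESeq2 called 6 Langerhans cell markers lower, against 1.7% of all genes, and 5.1% of all genes were lower by edgeR unadjusted. Markers listed at 0 were Defb3 in 3 libraries and Il1f6 and Camp, with the T cell marker Il17a, in imiquimod 1. Resting keratinocyte markers summed to 17747, 13265, 19981 and 7870 CPM, and T cell markers to 264, 160.0, 169 and 230.4. Their part in the class I values was not tested, and in bulk RNA fewer cells of a type and less RNA per cell cannot be told apart.

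Imiquimod against Vaseline is the comparison that the design implies. None of the 10 genes passed an adjusted p of 0.05 by edgeR's quasi-likelihood test, higher or lower, where 0.0634% of the 39439 genes tested were called higher and 0.137% were called lower. Without adjustment, at p under 0.05, 1 of the 10 was lower (H2-M3) and none higher, against 5.1% of all genes lower and 3405 of the 39439 higher. DESeq2 and limma-voom also called 0 of the 10. DESeq2 called 0.0152% of all genes higher and 1.7% lower, and limma-voom 0.104% and 0.345%. By DESeq2 4 of the 10 were lower at an unadjusted p under 0.05 (B2m, Tap2, H2-T23 and H2-M3), against 8.96% of all genes. On TMM factors each of the 10 had a negative log2 fold change, from -1.57 to -0.25, with a median of -0.99. Of all genes tested 39.4% were negative and the median was 0.41. On library totals 7 of the 10 were negative and the median was -0.13, where the median of all genes was 1.30. The level of olfactory and vomeronasal receptor genes stands for background reads. Among 14602 genes at 5 or more times that level, by the mean over the 4 libraries, the median of the 10 was -0.19. For all genes in that fit it was 0.08. By this mean a gene can pass through 1 group: Ulbp1 did at 5.06, with 15.5 times in Vaseline 2 and 0.91 and 0.82 with imiquimod. Among the 14602 genes edgeR called 0 in either direction. Of them 44.3% were negative against 7 of the 10, and 4.79% were lower at an unadjusted p under 0.05 against 0 of the 10. That fit has TMM factors of its own. On the TMM CPM of all genes tested, 50.3% of the 14602 were lower without overlap of the groups, against 20.9% of all genes. By DESeq2 on the 14602 genes, 0 of the 10 and 831 of all were lower at an unadjusted p under 0.05.

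**Figure D2:**
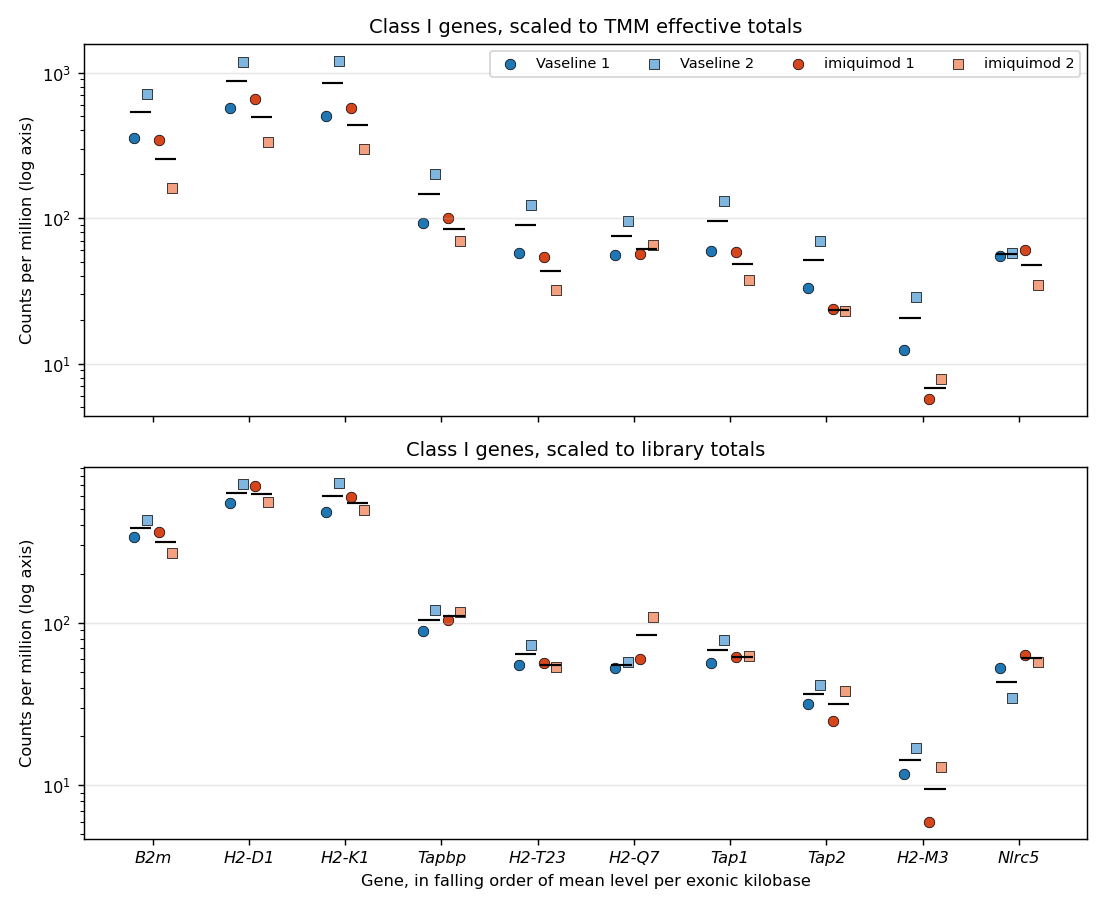
Level of each gene in each library, as CPM on a log axis, with TMM factors above and on library totals below; points are libraries and black lines the group means (n = 2 each). With TMM factors Vaseline 2 is the highest library for 9 of the 10 genes, while on library totals the groups lie over each other for 8 of them.

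The classical heavy chains H2-K1 and H2-D1 present peptides to CD8 T cells. H2-K1 (ENSMUSG00000061232; GRCm38 chromosome 17, 33996017 to 34000347) had 500.2 and 1202 TMM CPM with Vaseline and 568 and 298 with imiquimod. The groups overlapped, with imiquimod 1 above Vaseline 1. The means were 851 ± 496 and 433 ± 191 CPM (SD, n = 2 each), and the log2 fold change of -0.98 (SE 1.12, edgeR adjusted p = 0.616) was smaller than its SE. On library totals H2-K1 had 477 and 718 CPM with Vaseline and 597 and 493 with imiquimod, so that both imiquimod values lay between the Vaseline values.

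H2-D1 (ENSMUSG00000073411; chromosome 17, 35262730 to 35267499) had 570.2 and 1186 TMM CPM with Vaseline and 663 and 332 with imiquimod. Its log2 fold change was -0.82 (SE 1.14, edgeR adjusted p = 0.677). On library totals the values were 544 and 708.5 CPM against 696 and 549, again with the imiquimod libraries between the Vaseline libraries, and the log2 fold change was -0.01 (SE 0.31). The coding sequences of H2-K1 and H2-D1 were identical at 91.5% of aligned bases. Of the 50-base stretches of their transcripts, 9.63% and 12.8% also occur in transcripts of other genes, so a part of their reads could have been placed at a relative.

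B2m, the light chain shared by the heavy chains above (ENSMUSG00000060802; chromosome 2, 122147686 to 122153083), had no 50-base stretch in common with another gene. It had 355 and 715 TMM CPM with Vaseline and 344 and 162 with imiquimod. The groups did not overlap, though imiquimod 1 lay close under Vaseline 1. The log2 fold change was -1.08 (SE 0.98, edgeR adjusted p = 0.539). On library totals B2m had 339 and 427 CPM with Vaseline and 362 and 269 with imiquimod, and the groups overlapped.

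H2-T23, H2-M3 and H2-Q7 are nonclassical heavy chains. H2-T23 encodes Qa-1, which shows leader peptides of other class I chains to the receptor CD94/NKG2A. H2-T23 (ENSMUSG00000067212; chromosome 17, 36029773 to 36032855) had 57.6 and 123 TMM CPM with Vaseline and 54.2 and 32.3 with imiquimod, a log2 fold change of -1.07 (SE 0.68, edgeR adjusted p = 0.427). The groups did not overlap on this scale, but did on library totals, at 54.9 and 73.2 CPM against 56.9 and 53.5.

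H2-M3 presents formylated peptides of bacteria and mitochondria. H2-M3 (ENSMUSG00000016206; chromosome 17, 37270220 to 37274484) had 12.4 and 28.5 TMM CPM with Vaseline and 5.69 and 7.85 with imiquimod. Both imiquimod libraries lay below both Vaseline libraries, and the log2 fold change of -1.57 (SE 0.61) was the most negative of the 10. It had an unadjusted p of 0.0101 and an edgeR adjusted p of 0.280, or 0.0672 by DESeq2. It rests on few reads: imiquimod 1 held 89 counts, for which the 95% Poisson interval is 71.5 to 110 counts. On library totals H2-M3 had 11.8 and 17.03 CPM with Vaseline and 5.97 and 13.001 with imiquimod, so the groups overlapped and imiquimod 1 alone was low. Reads at the background level would make up 12.7% and 13.9% of its count in imiquimod 1 and 2, but 4.605% and 0.771% in the Vaseline libraries.

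H2-Q7 encodes Qa-2, a chain held in the membrane by a lipid anchor. H2-Q7 (ENSMUSG00000060550; chromosome 17, 35439155 to 35443773) had 55.4 and 95.8 TMM CPM with Vaseline and 57.0 and 65.1 with imiquimod, with a log2 fold change of -0.31 (SE 0.67, edgeR adjusted p = 0.799). On library totals it had 52.9 and 57.2 CPM against 59.9 and 108, without overlap and higher with imiquimod, and its log2 fold change there was 0.62 (edgeR adjusted p = 0.322). Most of that difference lay in imiquimod 2. That library also had the highest sums of neutrophil, monocyte and macrophage, fibroblast, endothelium, B cell and melanocyte markers, and the highest background. Their part in the difference was not tested. Of the 50-base stretches of its transcripts 26.4% occur in other genes, the highest share among the 10, first H2-Q10 with 14.02%, so its reads are uncertain.

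The peptide transporter is a pair of proteins, TAP1 and TAP2. Tap1 (ENSMUSG00000037321; chromosome 17, 34187553 to 34197225) had 59.1 and 132 TMM CPM with Vaseline and 58.5 and 37.6 with imiquimod, a log2 fold change of -0.999 (SE 0.68, edgeR adjusted p = 0.449). On library totals its values were 56.4, 78.9, 61.4 and 62.2 CPM in the same order, with the imiquimod libraries between the Vaseline libraries. Tap2 (ENSMUSG00000024339; chromosome 17, 34203527 to 34216321) had 33.3 and 69.7 TMM CPM with Vaseline and 23.6 and 23.1 with imiquimod, a log2 fold change of -1.14 (SE 0.63, edgeR adjusted p = 0.386). The imiquimod libraries were close together and below both Vaseline libraries. On library totals Tap2 had 31.8, 41.6, 24.8 and 38.2 CPM, and the groups overlapped. Exons of other genes on the opposite strand, among them Gm20496, cover 18.5% of the exonic bases of Tap2, and no strand setting is given for the counting.

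Tapbp, which encodes tapasin (ENSMUSG00000024308; chromosome 17, 33915899 to 33929292), had 92.7 and 199 TMM CPM with Vaseline and 99.7 and 69.9 with imiquimod. The groups overlapped, with a log2 fold change of -0.79 (SE 0.74, edgeR adjusted p = 0.551). On library totals its values were 88.5, 119, 105 and 116 CPM, and the sign turned to 0.09. Exons of Zbtb22 and Gm19412 cover 29.0% of its exonic bases, so its counts are uncertain.

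Nlrc5, the transactivator of class I genes (ENSMUSG00000074151; chromosome 8, 94434356 to 94527272), was nearly level on TMM CPM alone between the Vaseline libraries. It had 55.1 and 57.6 TMM CPM there, a ratio of 1.05 between Vaseline 2 and Vaseline 1, where the other 9 genes had ratios of 1.73 to 2.40. With imiquimod it had 60.6 and 34.9 CPM, with a log2 fold change of -0.25 (SE 0.65, edgeR adjusted p = 0.835). On library totals Nlrc5 had 52.6 and 34.4 CPM with Vaseline and 63.7 and 57.8 with imiquimod, without overlap and higher with imiquimod, at a log2 fold change of 0.49 (edgeR adjusted p = 0.389). By the mean over the 4 libraries it is the gene of the 10 nearest the background, at 16.4 and 44.4 times its level with Vaseline and 14.3 and 5.42 times with imiquimod, although in imiquimod 1 H2-M3 (7.89 times) and Tap2 (12.4 times) were nearer. Background reads would thus make up 18.5% of its count in imiquimod 2 and 2.25% in Vaseline 2.

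In all, the groups did not overlap and were lower with imiquimod for 5 of the 10 genes on TMM CPM (B2m, H2-T23, H2-M3, Tap1 and Tap2), where 20.9% of all genes tested and 50.3% of genes above background did the same. None lay apart and higher, where 30.5% of all genes and 5.56% of those above background did. On library totals this held for 0 of the 10, where 7.42% of all genes and 19.3% of those above background did so, and 2 of the 10 (H2-Q7 and Nlrc5) lay apart and higher, where 45.6% and 23.6% did. The 5 lower and the 2 higher are thus near the shares of genes above background, and are no result about these 10. Genes can enter that set through Vaseline 2, where background reads were lowest, so its shares can lean to lower. The median log2 fold change of the 10 was -0.28 without Vaseline 2, -0.60 without imiquimod 2, -1.58 without Vaseline 1 and -1.44 without imiquimod 1.

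**Figure D3:**
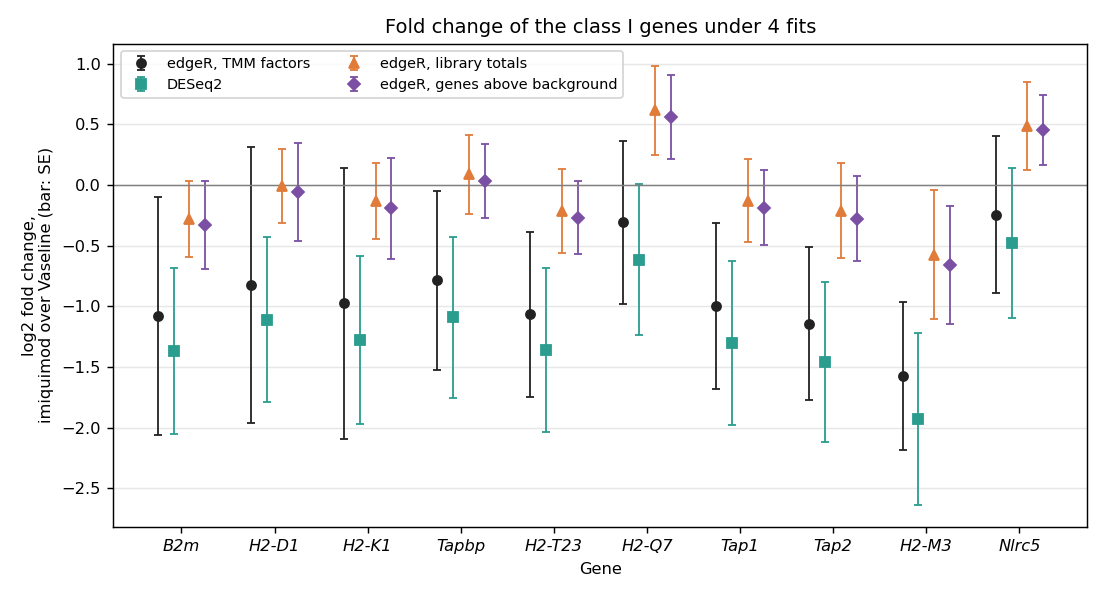
Log2 fold change of imiquimod over Vaseline for each gene under 4 fits, with bars of 1 SE (2 libraries a group). H2-M3 is the lowest gene in each of the 4 fits, and H2-Q7 and Nlrc5 are the highest; both turn positive when counts are scaled to library totals and in the fit of genes above background.

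Levels can be compared between genes only per length, here as TMM CPM per kilobase of exon. B2m had the highest level, at 622 ± 296 (SD, n = 2) in the Vaseline group and 294 ± 150 (SD, n = 2) in the imiquimod group, followed by H2-D1 at 340 ± 169 and 193 ± 90.8 and H2-K1 at 290 ± 169 and 147 ± 65.2. These 3 kept this order in all 4 libraries. Together they held 79.6% and 81.5% of the counts of the 10 genes with Vaseline and 81.4% and 74.5% with imiquimod. A gap of at least 5.26-fold in each library separated H2-K1 from Tapbp, the fourth, which had a mean of 31.8 over the 4 libraries. After H2-T23, at 23.1, came H2-Q7 at 16.0, Tap1 at 13.1, Tap2 at 9.89, H2-M3 at 9.46 and Nlrc5 at 6.13 CPM per kilobase. Of these neighbours Tap1 stood above Tap2 in all 4 libraries, while H2-T23 over H2-Q7, H2-Q7 over Tap1, Tap2 over H2-M3 and H2-M3 over Nlrc5 held in 3 of 4 and cannot be ordered beyond their spread.

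Ratios of 2 genes within a library do not depend on the scaling between libraries. The count of H2-D1 was 161% and 166% of that of B2m with Vaseline, and 192% and 204% with imiquimod. It was thus higher relative to the light chain in both imiquimod libraries, by 0.28 on the log2 scale, with an SD of 0.03 within Vaseline and 0.06 within imiquimod. H2-K1 showed less separation, at 141% and 168% of B2m against 165% and 183%. H2-K1 and H2-D1 kept to each other, at 87.7% and 101% of H2-D1 with Vaseline and 85.8% and 89.8% with imiquimod.

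Tapbp over B2m was 26.1% and 27.9% with Vaseline and 28.9% and 43.1% with imiquimod. Nlrc5 over B2m was 15.5% and 8.06% against 17.6% and 21.5%, and after removal of the background level 14.6% and 7.88% against 16.4% and 17.6%. H2-Q7 over B2m rested on imiquimod 2, at 15.6% and 13.4% against 16.6% and 40.2%. In these 3 pairs, as for H2-D1, the imiquimod libraries stood above the Vaseline libraries. For H2-T23 the ratio to B2m overlapped between the groups, at 16.2%, 17.2%, 15.7% and 19.9% in the same order. Tap1 over B2m had 16.6%, 18.5%, 16.98% and 23.2%, and Tap2 over B2m 9.38%, 9.75%, 6.85% and 14.2%.

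The transporter genes therefore parted in imiquimod 1, where Tap1 was 248% of Tap2, against 177% and 189% with Vaseline and 163% in imiquimod 2. H2-M3 over B2m was 3.48% and 3.99% with Vaseline but 1.65% and 4.84% with imiquimod, so it was low relative to B2m in imiquimod 1 alone. Of 12 ratios computed, 5 lay apart between the groups, all higher with imiquimod: those of H2-D1, Tapbp, Nlrc5 and H2-Q7 to B2m, and that of B2m to the class II chain H2-Aa. With 2 libraries against 2 the exact permutation test (two-sided) cannot give less than p = 0.333. Each of these 5 had that value, or 0.8 after Benjamini-Hochberg adjustment over the 12. With no difference between groups, a share of 0.333 of ratios would lie apart in either direction. Ratios over B2m share its counts and are not independent, and the share over all genes was not computed. The 5 are thus no result about these genes. The counts of separated ratios changed with single libraries, to 10 higher without imiquimod 1, and to 4 lower without imiquimod 2.

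**Figure D4:**
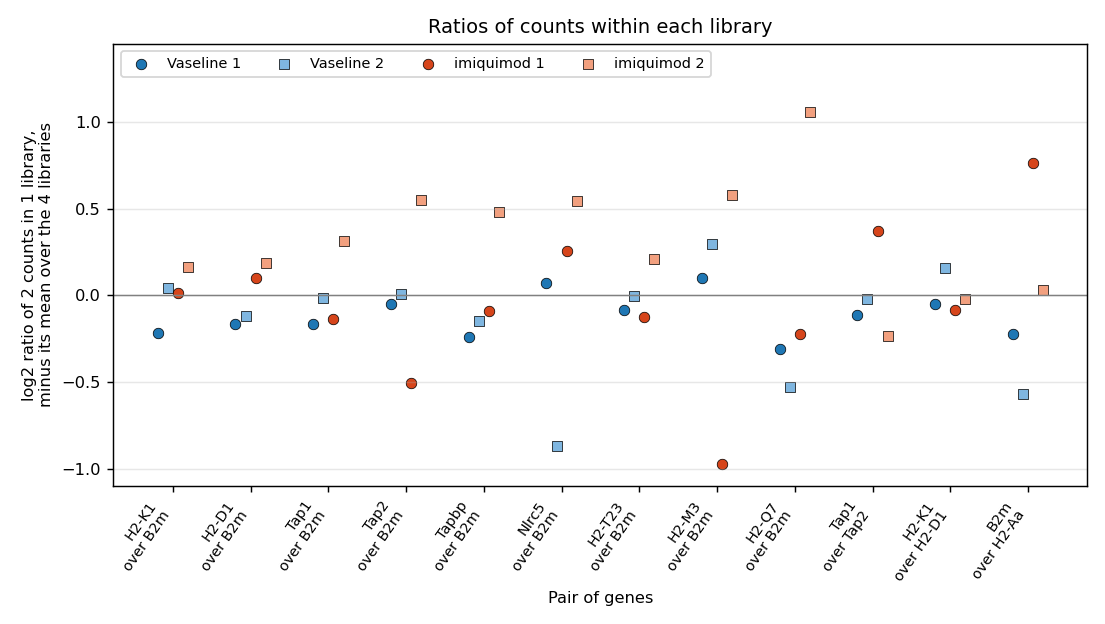
Log2 ratio of the counts of 2 genes in each library, less its mean over the 4 libraries; points are libraries. H2-D1, Tapbp, Nlrc5 and H2-Q7 relative to B2m, and B2m relative to H2-Aa, lie higher in both imiquimod libraries, with the widest gap of imiquimod 2 from the others at H2-Q7.

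For the rest of the pathway the lists are described by counts and medians. Each is to be read beside the values of all 39439 genes tested. Of these 5.1% were lower and 3405 genes higher by edgeR at an unadjusted p under 0.05, and DESeq2 called 1.7% lower. Of 22 other genes that supply and load peptides none passed by edgeR, with 4 lower and 0 higher at an unadjusted p under 0.05, and DESeq2 called 3 lower. Each had a negative log2 fold change on TMM factors, with a median of -0.98, and on library totals 6 were positive and 16 negative, with a median of -0.18. Psmb8, an immunoproteasome subunit, had 72.7 and 222 TMM CPM with Vaseline and 39.03 and 30.4 with imiquimod, and both imiquimod libraries were also lower on library totals, at 69.4 and 133 against 41.0 and 50.4 CPM. Its log2 fold change was -2.09 (SE 0.74, edgeR adjusted p = 0.222). Psmb9, the subunit whose gene starts beside Tap1, had 11.98, 26.9, 7.86 and 7.88 TMM CPM, with a log2 fold change of -1.31. Sec61b, a subunit of the translocon, and Uggt1, which checks the folding of glycoproteins, had -1.91 and -1.71. The genes with the pattern nearest to B2m, by root-mean-square distance of centred log2 TMM CPM over the 4 libraries among 129 genes of the lists, were Canx, the chaperone calnexin (0.0788), Psme1, a proteasome activator subunit (0.112), and Ezh2, a histone methyltransferase (0.122). H2-T23 and H2-K1 had distances of 0.13 and 0.138 from B2m, and H2-Q7, at 0.62, was the farthest of the other 9.

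Of 27 other class I and class I-like genes none passed by edgeR, with 5 lower and 1 higher at an unadjusted p under 0.05, and DESeq2 called 3 lower. On TMM factors 15 were negative and 12 positive, with a median of -0.11, and on library totals 6 and 21, with a median of 0.82. H2-M2 and H2-M5 are nonclassical heavy chains. H2-M2 had 249 and 676 TMM CPM per kilobase with Vaseline, above the 170 and 409 of H2-K1, and 110 and 99.3 with imiquimod, below the 193 and 101 of H2-K1. Its log2 fold change was -2.15 (SE 1.04, edgeR adjusted p = 0.350), and on library totals it had 369 and 626 CPM against 179 and 255, without overlap. H2-M5 had 56.3 and 81.3 TMM CPM with Vaseline and 10.5 and 12.5 with imiquimod, a log2 fold change of -2.57 (SE 0.67, edgeR adjusted p = 0.0557). Hfe, which regulates iron uptake, and Ulbp1, a ligand of the receptor NKG2D, had -1.96 and -1.69. Ulbp1 was at the background level with imiquimod, at 0.91 and 0.82 times it, against 2.99 and 15.5 times with Vaseline.

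Of 27 regulators of class I transcription 0 passed by edgeR and 0 by DESeq2, with 3 lower and 1 higher at an unadjusted p under 0.05 by edgeR. On TMM factors 24 were negative and the median was -0.89, and on library totals 13 were negative and the median was 0.022. Irf7, an interferon regulatory factor induced by interferon, had the opposite sign to H2-K1 and B2m, at 9.76 and 11.1 TMM CPM with Vaseline and 43.1 and 25.3 with imiquimod (log2 fold change 1.71, SE 0.61, edgeR adjusted p = 0.232). Socs1, an inhibitor of cytokine signalling, Rfxap, a subunit of the RFX factor that binds the X box, and Tyk2, a kinase of the interferon receptor, had -1.46, -1.34 and -1.30.

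Class II genes are set beside class I as values; the difference between the lists was not tested. The 13 class II genes were all negative on TMM factors, with a median of -2.23, and on library totals, with a median of -1.29, against -0.99 and -0.13 for the 10 class I genes. None passed by edgeR on TMM factors, with 9 lower at an unadjusted p under 0.05, against 5.1% of all genes. DESeq2 called 11 lower, against 1.7% of all genes. H2-DMa, which loads peptides on class II, passed on library totals at a log2 fold change of -2.47 (edgeR adjusted p = 0.0464). Within libraries, B2m was 18.6% and 14.6% of H2-Aa, a class II chain, with Vaseline and 36.9% and 22.2% with imiquimod.

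**Figure D5:**
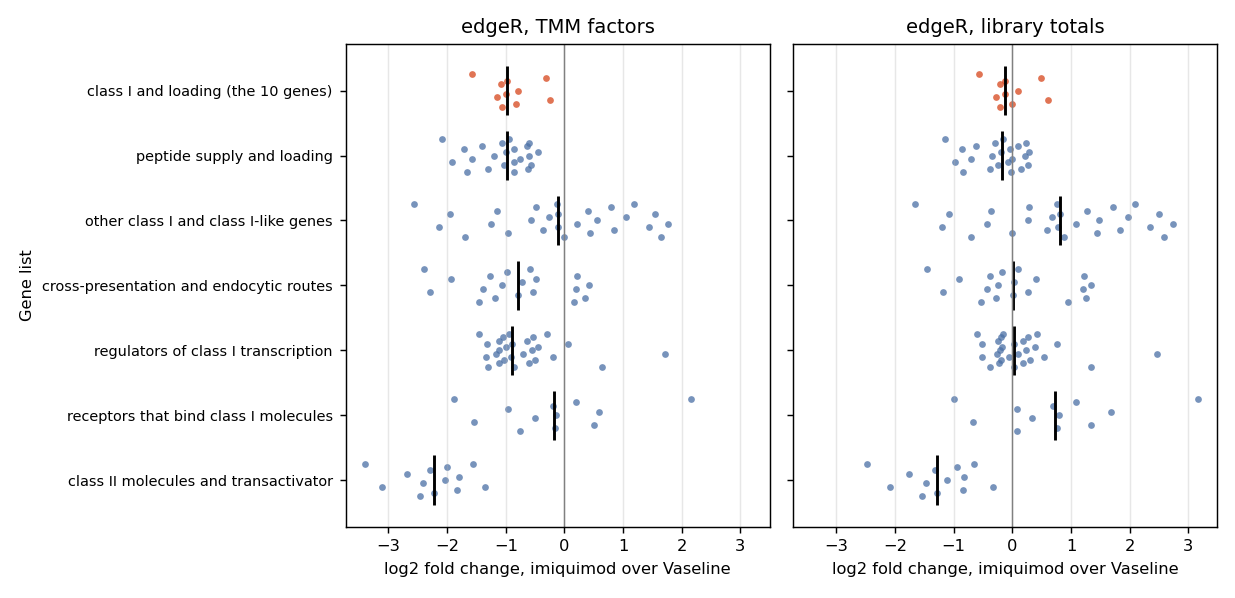
Log2 fold change of every tested gene of 7 lists, with TMM factors (left) and on library totals (right); each point is a gene and black bars are list medians. The 10 class I genes lie around -0.99 on the left and -0.13 on the right, while class II genes lie at -2.23 and -1.29.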

How the data were processed

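The authors deposited a table of unscaled whole-number counts for 55487 genes. StringTie, HISAT2, Trimmomatic and SAMtools, with the build GRCm38, are named per the submitters' processing notes. Versions, annotation, strand setting and handling of multi-mapped reads are not given in the sources used here. Per the labels' protocols, libraries were made from total RNA with a stranded low-input kit. From these counts, edgeR 4.0.16 (R 4.3.3; TMM factors, filterByExpr with a minimum count of 10 and a total of 15, glmQLFit with legacy set to FALSE) compared 2 imiquimod with 2 Vaseline libraries, two-sided, with Benjamini-Hochberg adjustment over 39439 genes. The fit was run on simulated counts, drawn from a mean profile shared by all libraries and scaled to library totals, with some genes changed. These counts lacked the differences in background between the libraries, so the run cannot show how the fit handles them. Alternatives used RLE, upper-quartile or no factors, DESeq2 1.42.0, limma 3.58.1 (voom) and other filters. Others took genes above background, a replicate block or each library left out. Genes above background had at least 5 times the median level per exonic kilobase of 1768 olfactory and vomeronasal receptor genes, by the mean over the 4 libraries. Background subtraction, the older quasi-likelihood form and crossed replicate numbers were added after seeing the data. The members and lists were chosen with earlier results of these data known; the letters of the motifs were written with the promoters in view. Besides the 10 genes, the text names up to 4 genes of smallest p per list with a mean of at least 5 CPM, the 3 nearest to B2m, Cd207, Krt14, Psmb8 and Psmb9. Gene positions, exons and transcripts are from GENCODE vM21 (55227 of 55487 genes matched), overlaps from bedtools 2.31.1, and promoters from RefSeq. The planned identity of heavy chain proteins was computed on coding sequences. SE is the log2 fold change over the square root of F. Intervals cover counting error only, since amplified reads lacking molecular identifiers can be copies of 1 molecule.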

Additional observations from a re-analysis of the deposited data

How the results depend on the processing

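No member passed an adjusted p of 0.05 in any of the 17 alternatives. In 4 of these a group has 1 library, which is assumed to vary like the other group; without Vaseline 2 every member's adjusted p was 0.9989 and without imiquimod 2 0.9997, so these fits say little of stability. The log2 fold changes of H2-K1, B2m, Tap1, Tap2, H2-T23 and H2-M3 were negative in each of the 17. The median log2 fold change of the 10 genes was -0.13 on library totals, -0.19 among genes above background, -0.23 there with DESeq2 and -0.052 with the background subtracted, and -1.58 to -0.28 when single libraries were left out. On library totals, among genes above background, there with DESeq2, with upper-quartile factors and with the background subtracted, Nlrc5 had 0.49, 0.46, 0.43, 0.080 and 0.49 and H2-Q7 0.62, 0.56, 0.53, 0.071 and 0.75. With single libraries left out Nlrc5 ran from -0.77 to 0.11, positive without imiquimod 2, and H2-Q7 from -0.77 to 0.11, positive without Vaseline 2. Tapbp had 0.090 on library totals, 0.033 among genes above background and 0.20 with the background subtracted, and H2-D1 0.11 in the last. The cause was not tested. Separated ratios numbered 5 to 10 higher and 0 to 4 lower with single libraries left out. The count of all genes called, 25 higher and 54 lower, was 17 and 14 with RLE, 41 and 56 with upper-quartile factors, 8 and 5 on library totals, 6 and 669 with DESeq2, 41 and 136 with limma-voom, 27 and 124 with the stricter filter, 3 and 5 with the older form, and 0 and 0 without a filter, among genes above background and with the background subtracted; DESeq2 on the genes above background called 97 and 156. It was 2959 and 317 if Vaseline 1 was left out, 28 and 17 for Vaseline 2, 15 and 6 for imiquimod 1, and 8 and 0 for imiquimod 2. Same-numbered libraries did not deviate together (r = -0.33 across 39439 genes, which are not independent replicates), so their numbers were not taken to pair them; with a replicate block 1 gene was higher and 0 lower, and the members' median was -0.92. With crossed replicate numbers as the block, 0 genes were called higher and 0 lower. Levels of H2-M3 rest on the fewest counts.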

Other observations

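Some genes of a list of receptors for class I molecules could be measured. The list is broad, and not every gene on it encodes a protein that itself binds class I. Of 16 listed genes 12 were tested, 7 of them above background. None passed by edgeR, with 2 lower and 1 higher at an unadjusted p under 0.05, and DESeq2 called 1 lower. Of all 39439 genes 5.1% were lower and 3405 genes higher by edgeR unadjusted, and DESeq2 called 1.7% lower. On TMM factors 8 were negative and 4 positive, with a median of -0.18, but on library totals 2 and 10, with a median of 0.72. Klrc1, which encodes the NKG2A receptor of H2-T23, had 18.7 and 37.6 TMM CPM with Vaseline and 9.39 and 6.19 with imiquimod, a log2 fold change of -1.88 (SE 0.62, edgeR adjusted p = 0.190). It was lower on library totals too, at 17.8 and 22.5 against 9.86 and 10.2 CPM, while its ligand H2-T23 overlapped between the groups on that scale. Pirb and Lilrb4a, inhibitory receptors of myeloid cells, had log2 fold changes of -0.96 and 0.59 on TMM factors but 0.087 and 1.68 on library totals. Lilrb4a had 30.4 and 50.04 TMM CPM with Vaseline, 20.8 in imiquimod 1 and 99.3 in imiquimod 2. Imiquimod 2 had the highest sums of neutrophil, monocyte and macrophage, fibroblast, endothelium, B cell and melanocyte markers, whose part was not tested. Cd3e, a chain of the T cell receptor complex, had -0.77 on TMM factors and 0.076 on library totals.

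Of 19 genes of cross-presentation and endocytic routes none passed by edgeR, with 6 lower at an unadjusted p under 0.05, against 5.1% of all genes. DESeq2 called 3 lower, against 1.7% of all genes. On TMM factors 14 were negative and the median was -0.79, and on library totals 9 were negative and the median was 0.015. Wdfy4, needed for cross-presentation by conventional dendritic cells, had 45.8 and 98.2 TMM CPM with Vaseline and 12.97 and 24.2 with imiquimod, a log2 fold change of -1.94 (SE 0.66, edgeR adjusted p = 0.205). Clec7a, the beta-glucan receptor, had 235 and 424 against 58.8 and 66.7 TMM CPM, and on library totals 224 and 254 against 61.8 and 110 CPM. Rab43 and Mrc1, the mannose receptor, had -2.29 and -1.46 on TMM factors and -1.18 and -0.43 on library totals. In both genes imiquimod 1 was far below imiquimod 2, at 7.35 against 42.4 TMM CPM for Rab43 and 6.52 against 30.1 for Mrc1. On library totals Mrc1 had 44.7 and 33.9 CPM with Vaseline and 6.84 and 49.8 with imiquimod, so the groups overlapped and imiquimod 2 was the highest library.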
